A study of Homo sapiens with 6 samples.

Results

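The 10 genes described here encode amino acid transporters of the plasma membrane, namely SLC3A2, SLC7A5, SLC7A11, SLC1A5, SLC1A4, SLC38A1, SLC38A2, SLC7A1, SLC6A9 and SLC43A1. They were chosen by gene symbol, with earlier results of these data known, and all 10 were found among the 16617 genes of the authors' deposited table. RNA was sequenced from T3M4 cells, an established line of human pancreatic ductal adenocarcinoma, in 3 libraries with a control guide RNA (sgControl, labelled WT) and 3 libraries with a guide RNA against METTL13 (sgMETTL13, labelled METTL13 knockdown). Both groups were cultured in DMEM with fetal bovine serum, and the series design adds only that the treatment matched that of a proteomic experiment. METTL13 methylates the translation elongation factor eEF1A, and the comparison shows which transcripts differ in abundance when METTL13 is lowered. The sources used here do not give how the guide lowers METTL13, whether the cells are a clone or a pool, or whether replicates are separate cultures, so p-values measure only the spread between these libraries.

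Amino acid transporters set the supply of building blocks for protein synthesis, of glutamine for the mitochondria and of cystine for glutathione. Several work as exchangers that release an intracellular amino acid, often glutamine, for each one imported, so that one carrier depends on the gradient built by another. Many of these genes are known targets of ATF4, a transcription factor made when amino acids run short, and SLC7A11 is also a known target of NRF2, the factor of the antioxidant response. Pancreatic cancer cells are known for high demand for glutamine and cystine.

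Short stretches of promoter sequence are shown because ATF4 and NRF2 act through defined DNA motifs. RefSeq promoter windows on GRCh38.p14 reach from 250 bases before to 50 bases after an annotated start, and 16 such windows matched 9 of the 10 genes. SLC7A11 had no entry. The motif TGATGNAA, the core of the amino acid response element, was searched on both strands and lay in 5 of the 16 windows, against 3.62% of 35116 windows of all genes. Each belonged to a different transporter. The matches follow in capitals with up to 10 flanking bases on each side, 5′ to 3′ on the strand of the gene, so that a match to the reverse complement reads TTNCATCA.
SLC3A2 (chr11:62881726-62881748, plus strand): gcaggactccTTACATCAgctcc
SLC1A5 (chr19:46784894-46784921, minus strand): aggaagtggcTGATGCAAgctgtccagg
SLC1A4 (chr2:64989382-64989409, plus strand): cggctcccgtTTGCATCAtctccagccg
SLC38A1 (chr12:46266503-46266530, minus strand): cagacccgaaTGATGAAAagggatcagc
SLC7A1 (chr13:29595664-29595691, minus strand): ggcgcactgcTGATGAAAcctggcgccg

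The motif TGACNNNGC, the core of the antioxidant response element, lay in 4 of the 16 windows, against 13.3% of all windows. It also admits AP-1 sites, as in the SLC3A2 match.
SLC3A2 (chr11:62881652-62881680, plus strand): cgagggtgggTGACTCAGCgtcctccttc
SLC1A5 (chr19:46787386-46787414, minus strand): cctggatcttGCGAGGTCAgctcccgctc
SLC7A1 (chr13:29595755-29595783, minus strand): tgcccggcggTGACGCGGCcgagcgggcc
SLC7A5 (chr16:87869491-87869519, minus strand): gcggggttccTGACGCAGCtgcgggcggc
The SLC1A5 match to this motif is to its reverse complement, GCNNNGTCA. The E-box CACGTG, which reads the same on both strands and is the motif of MYC, lay in 3 windows, those of SLC7A5, SLC1A5 and SLC43A1, against 7.26% of all windows. Of the 5 transporters with higher transcripts described next, SLC3A2 and SLC1A5 hold TGATGNAA in 1 of their 3 windows each. Their windows at the outer 5′ end of the gene, chr11:62855859-62856158 for SLC3A2 and chr19:46788545-46788844 for SLC1A5, hold none of the 3 motifs. The windows of SLC38A2 and SLC6A9 also hold none of them. Sequence outside the windows was not searched for any gene. The other matches to TGATGNAA belong to SLC1A4, SLC38A1 and SLC7A1, which did not pass the test. A match is a description of these letters, and which of the annotated starts T3M4 cells use was not measured. Many of these genes are known ATF4 targets, so the share of windows with TGATGNAA is no independent evidence. Whether ATF4 or NRF2 acts on these genes here was not tested.

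The authors' deposited table gives each group as an average of its libraries and not each library, so the spread of a level within a group is not analysed here. Levels are given in TPM, which accounts for transcript length, and changes as the authors' log2 fold change of sgMETTL13 over sgControl. A gene was called when the authors' adjusted p was under 0.05 over all genes. The standard error (SE) and 95% interval printed beside a change were derived from the deposited fold change and p under a normal test. The averaged estimated reads summed to 15240866 in sgControl and 15247500 in sgMETTL13. METTL13 itself kept 14.1% of its control TPM, and the authors' deposited table gives it a log2 fold change of -2.78 and an adjusted p of 2.5e-127. The epithelial markers KRT7, KRT8, KRT18, KRT19, EPCAM and CDH1 summed to 4739 TPM in sgControl and 4602 in sgMETTL13, and the authors' deposited table calls 0 of these 6, with 0 at an unadjusted p under 0.05. Of 12 markers of other cell types 9 were measured, and the authors' deposited table calls 0 of them, with 1 (CD68) at an unadjusted p under 0.05. In sgControl and sgMETTL13 the fibroblast markers summed to 14.3 and 14.4 TPM, nearly all from COL1A1, the leukocyte markers to 41.2 and 44.4 TPM, nearly all from CD68, and the endothelial markers to 2.04 and 1.44 TPM. COL3A1, PTPRC and CD3E were not analysed here. In bulk RNA a large change in few cells and a small one in all cells cannot be told apart.

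Transcripts of 5 of the 10 transporters rose in sgMETTL13 cells and 0 fell, by the authors' deposited table, where 0 of the 10 had a negative change at an unadjusted p under 0.05. Since the genes were chosen with earlier results known, this count is no independent evidence of a direction. The 5 were the glutamine carriers SLC1A5 and SLC38A2, the cystine importer SLC7A11, the heavy chain SLC3A2 and the glycine transporter SLC6A9, with rises of 1.16-fold to 1.26-fold. By the same rule 3.8% of all 16617 genes were called, 2.73% higher and 1.08% lower. Mean reads reached the median of all genes, 205, for 9 of the 10 transporters, and of the 8309 genes that reached it 5.21% were called higher and 1.83% lower. All 10 log2 fold changes in the authors' deposited table were above 0, although those of SLC7A5 and SLC7A1 turned just below 0 when taken as the ratio of average TPM, to -0.0061 and -0.012. That ratio lies lower for genes in general, with a median log2 value of -0.071 over all genes, so both stayed above the typical gene on that scale. The median of the 10 deposited changes was 0.24, beside 0.0014 for all genes. The 5 called rises, from 0.21 to 0.33, lay on both sides of the median of all called rises, 0.31, in the authors' deposited table. Once a trend of fold change with transcript GC content and length was removed, SLC1A5, SLC38A2 and SLC7A11 were still called while SLC3A2 and SLC6A9 were not.

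**Figure D1:**
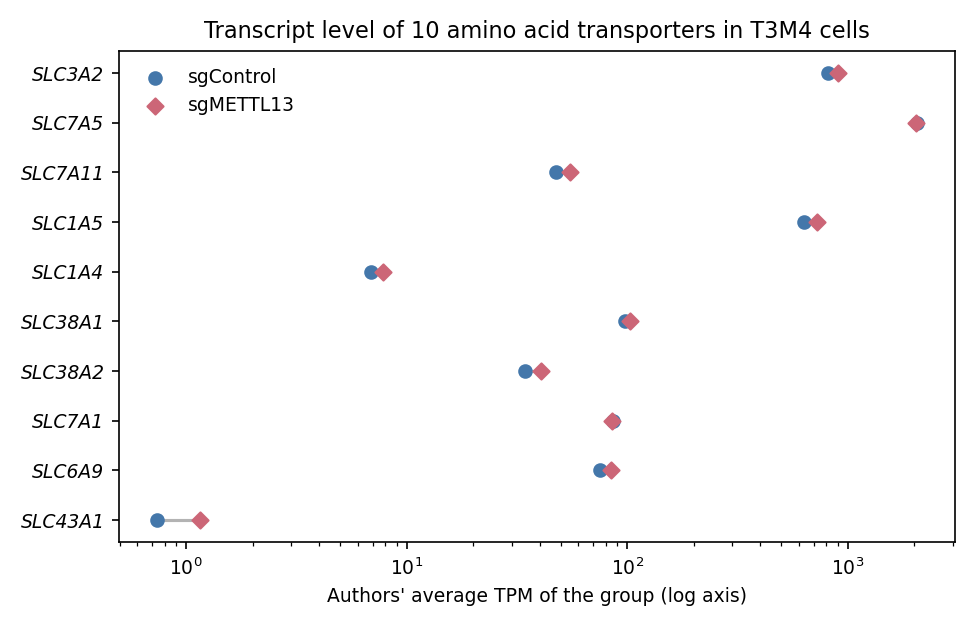
Authors' average TPM (horizontal log axis) of each transporter in sgControl (circles) and sgMETTL13 (diamonds), each point the average of 3 libraries, with no error because single libraries are not analysed here. The levels run from 0.737 TPM for SLC43A1 to 2056 TPM for SLC7A5, and the 2 groups lie close together for every gene.

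The order of levels was the same in both groups. In sgControl SLC7A5 was highest at 2056 TPM, followed by SLC3A2 (817 TPM), SLC1A5 (632 TPM), SLC38A1 (97.9 TPM), SLC7A1 (86.2 TPM), SLC6A9 (75.3 TPM), SLC7A11 (47.7 TPM), SLC38A2 (34.3 TPM), SLC1A4 (6.92 TPM) and SLC43A1 (0.737 TPM). SLC7A5 ranked 73rd, SLC3A2 159th and SLC1A5 218th of all 16617 genes by TPM in sgControl. The middle of the order is close, and whether SLC38A1, SLC7A1 and SLC6A9 differ beyond their spread could not be tested from averages. Summed over the 10 genes the level was 3854 TPM in sgControl and 4052 TPM in sgMETTL13.

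SLC3A2 encodes 4F2hc (CD98), the heavy chain that brings several SLC7 light chains to the cell surface. Its gene spans bases 62856102 to 62888875 of chromosome 11, plus strand (GRCh38, GENCODE 29, as for the other gene positions), and its transcript with the longest coding sequence has 12 exons. It averaged 817 TPM in sgControl and 900.3 TPM in sgMETTL13, or 11904 and 13305 estimated reads. SLC3A2 rose by 0.21 on the log2 scale (1.16-fold, SE 0.059, interval from 0.095 to 0.33), at an adjusted p of 0.014 in the authors' deposited table. After removal of the trend in GC content and length its change was 0.14 and its adjusted p 0.265.

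SLC7A5 encodes LAT1, the light chain that imports leucine and other large neutral amino acids in exchange for glutamine. It lies on the minus strand of chromosome 16, from 87830023 to 87869488. The average was 2056 TPM in sgControl and 2047 TPM in sgMETTL13. The authors' deposited table gives SLC7A5 a log2 fold change of 0.070 (SE 0.057, interval from -0.041 to 0.18), at an adjusted p of 0.772. The interval leaves out rises above 1.13-fold and falls below 0.972-fold. SLC7A5 averaged 71295 and 72243 reads in sgControl and sgMETTL13, for which counting error alone would give an SE of 0.0044, beside the SE of 0.057. What set the SE was not tested.

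SLC7A11 encodes xCT, the light chain that takes up cystine in exchange for glutamate and so feeds glutathione synthesis. Chromosome 4 carries the gene at 138164097 to 138242349, minus strand. The average was 47.7 TPM in sgControl and 54.8 TPM in sgMETTL13, from 2222 and 2673 estimated reads. By the authors' deposited table SLC7A11 rose by 0.32 on the log2 scale (1.25-fold, SE 0.078, interval from 0.17 to 0.47; adjusted p 0.0025). Its level was far below that of SLC7A5, and the ratio of SLC7A5 to SLC7A11 in TPM was 43.1 in sgControl and 37.3 in sgMETTL13. Read averages of SLC7A5 and SLC7A11 are not multiples of 1 read over 3 libraries (to within 0.005 reads in the sum), unlike those of the other 8 genes, so some of their reads were assigned in fractions. What this does to their values was not tested.

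Because light chains need SLC3A2 at the surface, their sum was set beside it. SLC7A5, SLC7A6, SLC7A7, SLC7A8 and SLC7A11, the 5 measured light chains known to pair with SLC3A2, summed to 2132 TPM in sgControl and 2133 TPM in sgMETTL13. SLC7A5 made up 96.4% of that sum in sgControl and 96.0% in sgMETTL13. The sum was 2.61 times the TPM of SLC3A2 in sgControl and 2.37 times in sgMETTL13. These ratios come from group averages and have no error.

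SLC1A5 encodes ASCT2, a sodium-dependent exchanger that is a main entry route of glutamine in many tumour cells. Chromosome 19 carries the gene at 46774883 to 46788594, minus strand. The average was 632 TPM in sgControl and 728 TPM in sgMETTL13, from 13558 and 15898 estimated reads. By the authors' deposited table SLC1A5 rose by 0.28 on the log2 scale (1.21-fold, SE 0.055, interval from 0.17 to 0.39). In the authors' deposited table SLC1A5 has an adjusted p of 4.41e-05, which was the smallest of the 10 genes and the 1 that also passed a Bonferroni adjustment over all genes.

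SLC1A4 encodes ASCT1, the related exchanger of alanine, serine and cysteine. Its gene spans bases 64988477 to 65023865 of chromosome 2, plus strand. The average was 6.92 TPM in sgControl and 7.79 TPM in sgMETTL13. The authors' deposited table gives SLC1A4 a log2 fold change of 0.25 (SE 0.125), at an adjusted p of 0.402 and an unadjusted p of 0.0497. At 244 and 279 average reads and this SE, a rise of SLC1A4 under 1.31-fold could not have been called. SLC1A5 exceeded SLC1A4 by 91.3 times in TPM in sgControl and 93.4 times in sgMETTL13.

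**Figure D2:**
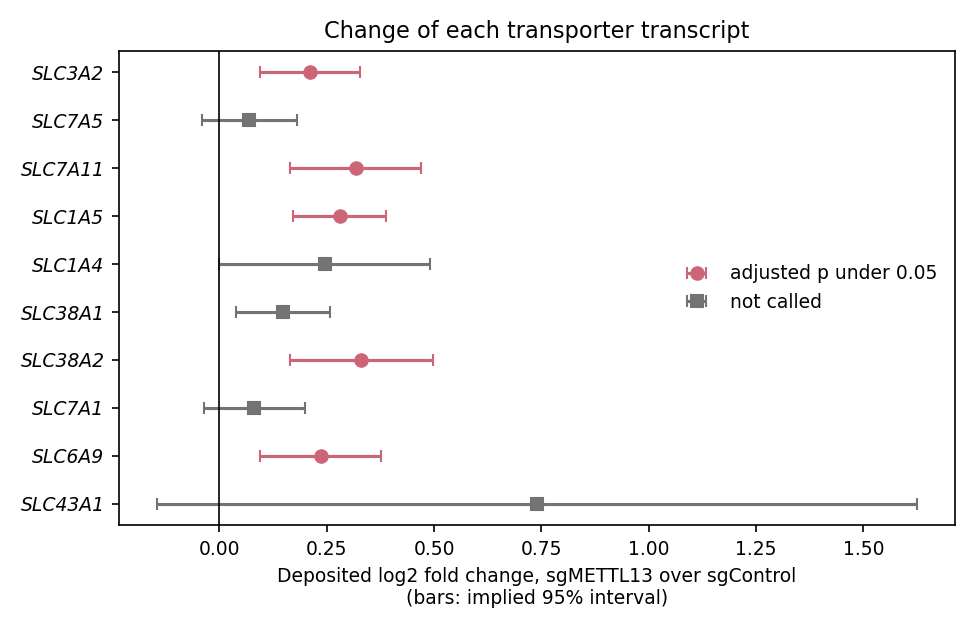
Deposited log2 fold change of sgMETTL13 over sgControl (horizontal axis) for each transporter, with the implied 95% interval as bars; circles passed an adjusted p of 0.05 and squares did not. The 5 called genes lie between 0.21 and 0.33, and the interval of SLC43A1 reaches from -0.14 to 1.62.

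SLC38A1 and SLC38A2 encode SNAT1 and SNAT2, sodium-coupled importers of glutamine, alanine and other small neutral amino acids that load the cell for the exchangers. They are neighbours on the minus strand of chromosome 12, SLC38A1 from 46183063 to 46270017 and SLC38A2 from 46358189 to 46372867, with 88171 bases between them. SLC38A2 averaged 34.3 TPM in sgControl and 40.8 TPM in sgMETTL13, and by the authors' deposited table it rose by 0.33 on the log2 scale (1.26-fold, SE 0.085, interval from 0.16 to 0.50; adjusted p 0.0048). It had the largest change of the 5 called genes. SLC38A1 averaged 97.9 TPM in sgControl and 103 TPM in sgMETTL13, and the authors' deposited table gives it a log2 fold change of 0.15 (SE 0.055, interval from 0.040 to 0.26), at an adjusted p of 0.126. At its SE the smallest rise of SLC38A1 that could have been called was 1.13-fold, and its own value was 1.11-fold. Their intervals overlap, and whether the changes of SLC38A1 and SLC38A2 differ was not tested. The ratio of SLC38A1 to SLC38A2 in TPM was 2.85 in sgControl and 2.51 in sgMETTL13.

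SLC7A1 encodes CAT1, a uniporter of arginine, lysine and ornithine that needs no heavy chain. It lies on the minus strand of chromosome 13, from 29509410 to 29595688. The average was 86.2 TPM in sgControl and 85.5 TPM in sgMETTL13. The authors' deposited table gives SLC7A1 a log2 fold change of 0.082 (SE 0.060, interval from -0.036 to 0.20), at an adjusted p of 0.720. Its log2 ratio of average TPM was -0.012, beside the median of -0.071 over all genes on that scale.

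SLC6A9 encodes GlyT1, a sodium- and chloride-coupled importer of glycine, which is a part of glutathione. Chromosome 1 carries the gene at 43991500 to 44031467, minus strand. The average was 75.3 TPM in sgControl and 84.3 TPM in sgMETTL13. By the authors' deposited table SLC6A9 rose by 0.24 on the log2 scale (1.18-fold, SE 0.072, interval from 0.096 to 0.38; adjusted p 0.030). After removal of the GC and length trend the change of SLC6A9 was 0.15 and the adjusted p 0.403.

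SLC43A1 encodes LAT3, a uniporter of branched-chain amino acids and phenylalanine. It lies on the minus strand of chromosome 11, from 57484534 to 57515786. The average was 0.737 TPM in sgControl and 1.15 TPM in sgMETTL13, from 41 estimated reads over the 3 sgControl libraries and 66 over the 3 sgMETTL13 libraries. The authors' deposited table gives SLC43A1 a log2 fold change of 0.74 (SE 0.451, interval from -0.14 to 1.62), at an adjusted p of 0.572. At this SE a rise of SLC43A1 under 2.65-fold could not have been called.

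**Figure D3:**
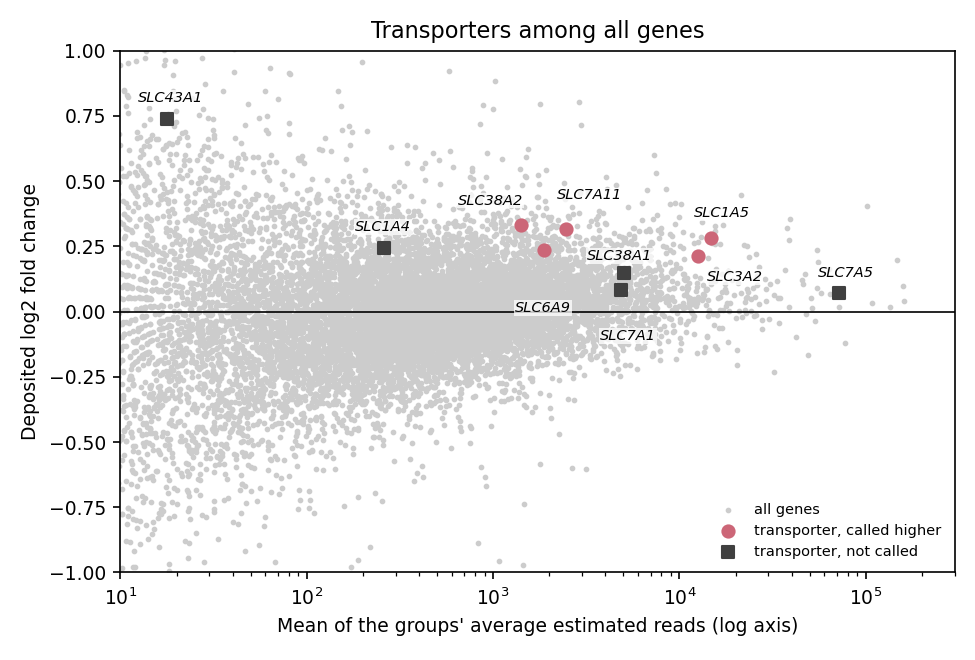
Deposited log2 fold change (vertical axis, drawn from -1 to 1) against the mean of the group averages of estimated reads (horizontal log axis, from 10 reads) for all genes in grey and the 10 transporters; genes beyond these limits are not drawn. The called transporters (circles) lie above 0 at 1409 to 14728 mean reads, on the upper side of the cloud, while SLC7A5 lies near 0 at 71769 mean reads.

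Error depends on abundance: the median SE was 0.089 over genes with at least the median read count and 0.574 over the rest. Among genes with 80% to 125% of the mean reads of SLC38A2, SLC6A9, SLC7A11, SLC1A5 and SLC3A2 the share called higher was 7.05%, 9.29%, 10.5%, 15.3% and 15.9%. For SLC7A11 the SE was 0.078 beside a median of 0.066 over 666 genes, and for SLC1A5 0.055 beside 0.059 over 72 genes.

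The transporters differ widely in base composition and transcript length, and a fitted trend of all fold changes with GC content and length touched them unequally. SLC7A11 and SLC38A2 have AU-rich transcripts of 35.4% and 38.1% GC, at percentiles 1.34 and 6.31 of all genes, and their changes were larger after removal of the GC and length trend, at 0.39 and 0.38. SLC1A5, SLC7A5, SLC6A9, SLC43A1 and SLC3A2 are GC-rich at 61.3%, 61.1%, 60.0%, 58.2% and 57.4%, beside a median of 50.1% over all genes, and their changes were smaller with the trend removed, at 0.19, 0.0018, 0.15, 0.67 and 0.14. SLC38A1, SLC1A4 and SLC7A1, of middling GC content, moved little, to 0.15, 0.24 and 0.089. Length differs too: the transcripts of SLC7A11 and SLC38A2 have 9645 and 4888 bases, those of SLC3A2 and SLC6A9 2222 and 2330. SLC7A5 and SLC7A1, at 4537 and 7347 bases, are also longer than the median of 2945 over all genes. The parts of GC content and length in these shifts were not separated. The adjusted p with the trend removed was 6.4e-05 for SLC7A11, 0.00076 for SLC38A2 and 0.021 for SLC1A5. In that setting 1.59% of the 16208 genes with an annotated transcript were called higher, and higher calls made up 60.3% of all calls in place of 71.7%. What gave rise to the trend was not tested.

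**Figure D4:**
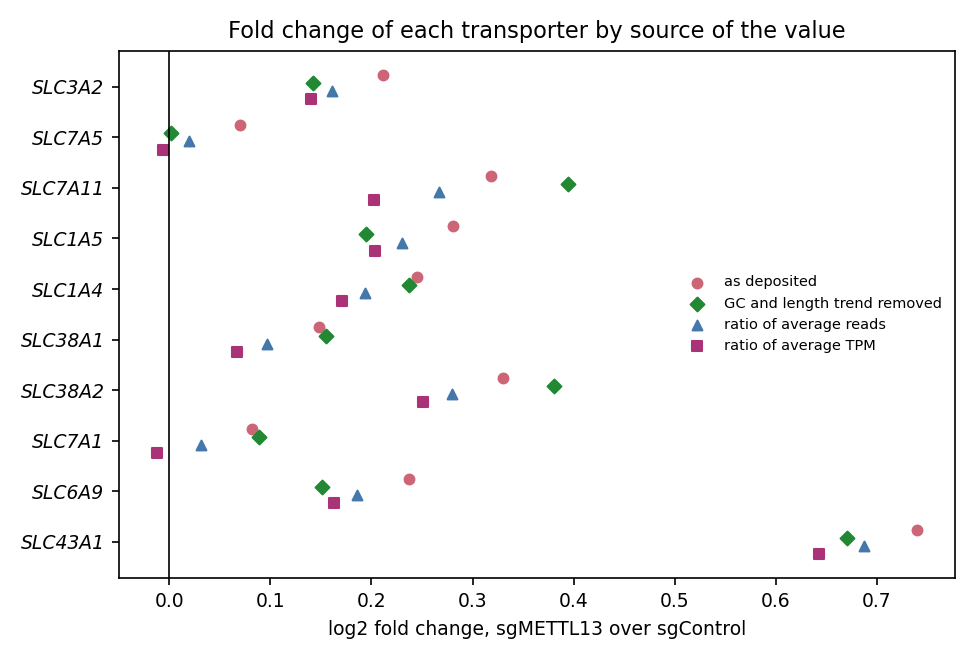
Log2 fold change of sgMETTL13 over sgControl (horizontal axis) for each transporter as deposited (circles), after removal of the GC and length trend (diamonds), and as the ratio of the authors' average reads (triangles) or average TPM (squares). SLC7A11 and SLC38A2 move up with the trend removed, SLC3A2, SLC6A9 and SLC1A5 move down, and SLC7A5 and SLC7A1 lie just below 0 in TPM.

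Some reads may come from neighbouring genes, since the sources used here do not give whether the counting used strand. Exons of SLC6A9 overlap those of CCDC24 on the other strand by 404 bases. CCDC24 averaged 139 reads in sgControl and 140.0 in sgMETTL13, and SLC6A9 averaged 1756 and 1998. The part of overlapping genes in these values was not tested. Antisense RNAs of SLC7A11 (SLC7A11-AS1, 865 bases of exon overlap), SLC1A5 and SLC7A5 are annotated and were not analysed here.

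Other amino acid carriers, listed here as carriers of the cell surface, were mostly scarce and were called about as often as genes in general. Where their proteins lie in T3M4 cells was not tested. Of 36 such genes 26 were measured, 7 of them with at least the median read count of all genes. The authors' deposited table calls 1 higher and 0 lower, or 3.85% of the 26 beside 3.8% of all genes. Their median log2 fold change was 0.023, and 2 had an unadjusted p under 0.05, 1 in each direction. The called gene was SLC7A8, which encodes LAT2, another light chain of SLC3A2. SLC7A8 went from 13.3 to 17.4 TPM and by the authors' deposited table rose by 0.42 on the log2 scale (1.34-fold, SE 0.124; adjusted p 0.021). For the most abundant uncalled ones, SLC38A10 and the light chain SLC7A6, the authors' deposited table gives 0.057 and -0.091 on the log2 scale. Of 24 carriers of lysosomes and mitochondria the authors' deposited table calls 0, beside 3.8% of all genes. At an unadjusted p under 0.05 there were 4, 2 higher and 2 lower. The median over the 24 was 0.0017. The mitochondrial glutathione carrier SLC25A39 and the glutamate carrier SLC25A22, the most abundant of them, have log2 values of 0.089 and 0.12 in the authors' deposited table.

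Most enzymes of amino acid, glutathione and thioredoxin metabolism were not called. Of 35 such enzymes 3 rose, 1 fell and 31 did not pass by the authors' deposited table, and their median log2 fold change was 0.062. An unadjusted p under 0.05 was reached by 14 of the 35, 12 higher and 2 lower. The called share was 11.4%, beside 3.8% of all genes, and 31 of the 35 had at least the median read count of all genes. By the log2 values of the authors' deposited table, ODC1, which makes putrescine from ornithine, rose by 0.60 (345 to 498 TPM), the mitochondrial arginase ARG2 by 0.34 and the thioredoxin reductase TXNRD1 by 0.24. By the authors' deposited table GLUL, the glutamine synthetase, fell by 0.37 on the log2 scale (SE 0.064; adjusted p 1.53e-06), from 88.9 to 64.9 TPM. The authors' deposited table gives 0.052 and 0.14 on the log2 scale for SHMT2 and GPX4, the most abundant uncalled enzymes.

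Genes of the amino acid response, the eIF2 kinases, ATF4 with its partners and targets, and factors that act on transporter genes, gave 7 higher and 1 lower of 25 by the authors' deposited table, at a median log2 fold change of 0.14. The other 17 did not pass, and 6 of the 25 had a negative change. An unadjusted p under 0.05 was reached by 13 of the 25, 12 higher and 1 lower. The called share was 32.0%, beside 3.8% of all genes. Mean reads reached the median of all genes for 22 of the 25, and of all genes that reached it 5.21% were called higher and 1.83% lower. After removal of the GC and length trend 5 genes of the list were called, all higher, and NUPR1 (adjusted p 0.087), ATF3 and EIF2AK2 lost their calls. The rises with the smallest adjusted p were PPP1R15A (0.52), which restores eIF2, the transcription factor CEBPB (0.53), STC2 (0.34), the ATF4 inhibitor TRIB3 (0.37), NUPR1 (0.43) and the lipoprotein receptor gene VLDLR (0.62) in the authors' deposited table. ATF3 (0.50) was the other rise and EIF2AK2 (-0.25), the kinase PKR, the fall in the authors' deposited table, and both are named after their values were seen. ATF4 (0.14, adjusted p 0.223) and MYC (0.14, adjusted p 0.277) did not pass in the authors' deposited table. This list was drawn up with earlier results of these data known, so its direction is no independent evidence.

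Of 35 genes listed for amino acid sensing by mTORC1, the authors' deposited table calls 0, beside 3.8% of all genes. The list holds the Rag GTPases, Ragulator and GATOR, and also MTOR, RPTOR, MLST8, RHEB, TSC1 and TSC2. The median log2 fold change of the 35 was -0.011, with 1 higher (RRAGA) and 1 lower (MTOR) at an unadjusted p under 0.05. LAMTOR1 and SEC13, the most abundant, have log2 values of 0.10 and 0.12 in the authors' deposited table.

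**Figure D5:**
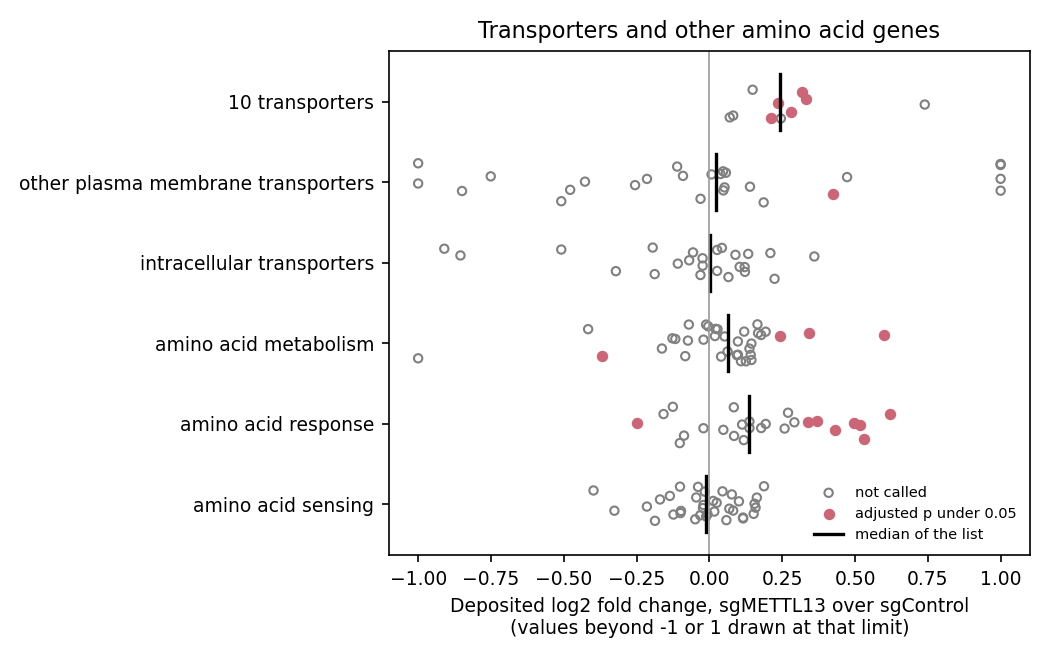
Deposited log2 fold change of sgMETTL13 over sgControl (horizontal axis, values beyond -1 or 1 drawn at that limit) for each measured gene of 6 lists; filled points passed an adjusted p of 0.05, open points did not, and a bar marks the median of the list. The 10 transporters have a median of 0.24 and lie above 0, with SLC7A5 and SLC7A1 just below 0 in average TPM. The medians of the other carrier lists are 0.023 and 0.0017. Those of the metabolism, response and sensing lists are 0.062, 0.14 and -0.011.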

How the data were processed

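The submitters' processing notes name RSEM 1.2.12, Bowtie2 2.2.5, HISAT2 2.0.4 and DESeq2, and the builds hg38 and GRCh38.p12, without their roles. The guide RNA in each title set the groups. Per the file headers, the authors deposited an average TPM, FPKM and read count (an estimated count) for each group, and a log2 ratio with a p-value and q-value. The deposited log2 fold change exceeds the log2 ratio of average reads by 0.052 and that of average TPM by 0.073 (medians over genes with at least the median read count). The q-value is within 1.20% of a Benjamini-Hochberg adjustment.

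Values per library were not used here, so the count model meant for one column per library was not run and the authors' deposited comparison is the test, at an adjusted p under 0.05. The SE is the deposited log2 fold change over the normal quantile of its p. The smallest callable change is the SE times the quantile of the largest called p, 0.0019. The trend in GC content and log transcript length (cubic B-splines, 4 degrees of freedom each, weighted by the inverse square of the SE) used the GENCODE 29 transcript with the longest coding sequence, matched by Entrez ID for 97.5% of genes. The steps were run on simulated fold changes with normal noise and a trend in GC content only. That run took the SE as given, so it tests neither the derived SE nor a trend in length. Scripts ran in Python 3.11.15 (patsy 1.0.2, scipy 1.17.1, numpy 2.4.6, matplotlib 3.10.9, pandas 2.3.3).

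The 10 genes and the lists were chosen with earlier results of these data known. Named are the 10 genes, METTL13, and of each list the called members (the 6 with the smallest adjusted p where more were called) and the 2 most abundant uncalled ones. Protein sequences were not used here.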

Additional observations from a re-analysis of the deposited data

How the results depend on the processing

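All 10 genes kept a positive fold change under each adjustment, filter and centring run and in the ratios of average reads and FPKM; in the ratio of average TPM, SLC7A5 was at -0.0061 and SLC7A1 at -0.012, with or without a pseudocount of 1, while the median over all genes was -0.071 and, with the pseudocount, -0.043. SLC43A1 has no value at or above the median read count. The count of called transporters was 3 at an adjusted p under 0.01, 1 with Bonferroni and 3 after removal of the GC and length trend, all of them higher, and 5 in the other settings. The median log2 fold change of the 10 was 0.17 with the trend removed, 0.17 in the ratio of average TPM and 0.16 with a pseudocount of 1. At an adjusted p under 0.01 and with Bonferroni the other surface carriers had 0 calls, and the amino acid response list 5 and 4; that list had 5 with the trend removed. Over all genes the trend's removal left 258 higher and 170 lower calls, or 60.3% higher in place of 71.7%, and the adjusted p under 0.01 and Bonferroni left 409 and 180 of 632. The cause was not tested, except that the stricter thresholds call fewer genes by construction. No paired analysis was possible because the deposited columns are group averages; for that reason leaving out a library and DESeq2 size factors were not run either. Counting error alone would give an SE of 0.287 for SLC43A1 and 0.073 for SLC1A4, beside SEs of 0.451 and 0.125. The part of depth in their error was not tested.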
